A study of Homo sapiens with 4 samples.

Results

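Reh-6-MPR cells are Reh cells that were made to tolerate the thiopurine 6-mercaptopurine (6-MP), and the profile described here is that of the 1 library prepared from them after 48 h with the vehicle, labelled Blank. Its members are the protein-coding genes of the deposited FPKM table, ranked by FPKM in that library. They are 15471 of the 29833 genes that the table lists. FPKM is a level per length: each gene's read count is scaled by gene length and by library depth. Levels of different genes can be set side by side only as far as the length used fits the transcripts present. It was that of all annotated exons together or one found from the values, such as 15574 bases for RUNX1. Intervals of levels and of ratios between genes do not cover error in this length. The study has 4 libraries, 1 each for vehicle (PBS), histidine, 6-MP and both agents, and the other 3 libraries served only to recover the read counts behind the values. The vehicle cells carry the same selection for 6-MP resistance as every library of the series, had been kept in medium free of 6-MP before the experiment, and received neither agent. No library of the parental Reh cells was analysed here, so no value below is a difference between resistant and sensitive cells. With 1 library there is no replicate check and no P value, and the 95% intervals given below cover counting error only, since reads that are PCR copies are not independent molecules.

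Reh is an established line of B-cell acute lymphoblastic leukemia (B-ALL), the cancer of B-lymphocyte progenitors. A progenitor of this lineage expresses the recombinases that cut and join the antibody gene segments, then a pre-B receptor made of an antibody heavy chain and a surrogate light chain, all under transcription factors such as PAX5 and EBF1. Reh carries the fusion of ETV6 to RUNX1, the product of a translocation between chromosomes 12 and 21, and its other ETV6 allele has been lost. 6-MP is a prodrug that purine salvage enzymes turn into thioguanine nucleotides, which enter DNA and are read by the mismatch repair proteins. Genes of these systems were therefore grouped by role, and the value of each is given beside the distribution over protein-coding genes.

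The library total behind the FPKM values was 14316493 reads, and 96.6% of the recovered reads fell on protein-coding genes. A single gene was taken as expressed at an FPKM of 1 or more, and as silent below 0.1. Of the 15471 protein-coding genes, 9781 (63.2%) had an FPKM of 1 or more, 3303 (21.3%) were below 0.1, and 1467 (9.48%) had no read. These 3 shares are the background for every list below. The median FPKM was 3.21, with quartiles of 0.188 and 11.3. The floor of 3 reads, taken as the limit that a count of 0 allows, had a median FPKM of 0.0424 over protein-coding genes. At this depth a level below a gene's own floor is not told apart from 0. The table lists no gene that is at 0 in all 4 libraries, so a gene with no row is named as such, and the reason for the missing row was not determined.

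A small set of genes carried much of the signal. The 276 genes at an FPKM of 100 or more were 1.78% of protein-coding genes and held 41.5% of their summed FPKM, and 25.8% of their reads. The class from 10 to 100 held 3974 genes, 46.3% of summed FPKM and 55.4% of reads. The 10 highest genes held 12.1% of summed FPKM, the 100 highest 30.6%, and the 1000 highest 60.4%. At the other end, the 1836 genes with a read but an FPKM under 0.1 together held 0.0402% of reads, with a median of 2 reads each. By chromosome the share of genes at 1 or more ran from 58.5% on chromosome 15 to 66.2% on chromosome 16, apart from the mitochondrial genome, where 13 of 13 genes reached it.

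**Figure D1:**
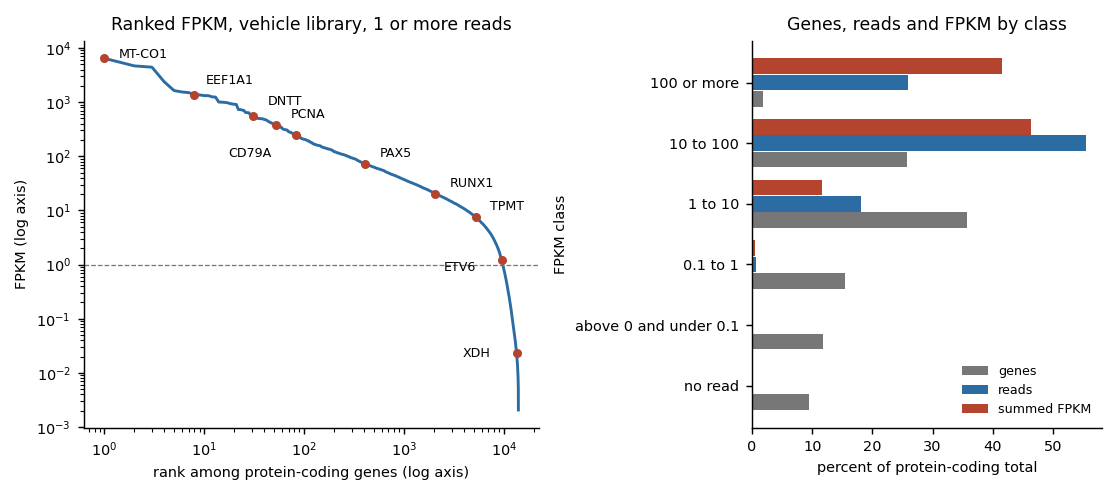
Left, FPKM of the protein-coding genes with a read against their rank, both on log axes, with 10 genes marked and a dashed line at 1. Right, percent of genes, reads and summed FPKM in each FPKM class. The class of 100 or more is 1.78% of the genes and 41.5% of the summed FPKM.

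The most abundant transcripts came from the mitochondrial genome. Its 13 protein genes, which encode subunits of the respiratory chain and of ATP synthase, held 12.9% of the summed FPKM and, being short, 3.01% of the reads. MT-CO1, a subunit of cytochrome c oxidase, stood first with an FPKM of 6448 (95% interval 6414 to 6481). MT-CO3 followed at 4672 and MT-CO2 at 4425, so the mitochondrially encoded subunits of this enzyme took the first 3 ranks. Subunits of complex I and the others came next, from 2356 for MT-ND4 to 1238 for MT-ND4L, and MT-ND6, the gene on the other strand, had 638. MT-ATP8, which overlaps MT-ATP6 on the same strand, had 21.6 from 64 reads against 1499 for MT-ATP6.

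The nuclear genes among the 20 highest were those of protein synthesis, the cytoskeleton and general metabolism. EEF1A1, the elongation factor that brings aminoacyl-tRNA to the ribosome, had an FPKM of 1382 (95% interval 1376 to 1388) and the most reads of any protein-coding gene, 199066. TMSB10, an actin-binding thymosin, had 1317, and EEF2, the translocation factor, 1005. The ribosomal protein genes RPS12, RPS2 and RPL41 had 996, 992 and 925. ACTB had 976, the glycolytic enzyme gene GAPDH 946, and the chaperone gene HSP90AB1 914. The order within this group is loose: in 10 of the 19 pairs of neighbouring ranks the counting intervals overlap. Of the 100 highest genes, 41 encode cytosolic ribosomal proteins, 12 are mitochondrially encoded, 6 encode chaperones and 5 cytoskeletal proteins, while 25 belong to none of the lists. HNRNPA1, an RNA-binding protein gene, had the most reads among those 25, 47715, and an FPKM of 498. Of the same 25 and chosen after their values were seen, PTMA had 906, ARHGDIB, a GTPase regulator of blood cells, 504, and UHRF1, which maintains DNA methylation at replication, 442.

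Cytosolic ribosomal protein genes were high with few exceptions. Of the 79 genes, 78 had an FPKM of 1 or more and 67 were among the 1000 highest genes, with a median of 208.7 and 9.54% of the summed FPKM. Among the low members were RPS25 at 1.61 and RPS10 at 1.85. Ribosomal protein genes have many processed copies in the genome, and whether reads were split among them or set aside was not tested. RPS10 shares 39.4% of its exon bases with another gene on the same strand in GENCODE 29, and RPS25 shares none. These low values are uncertain. Of the glycolytic genes, after GAPDH came ENO1 at 323, PKM at 185 and PGK1 at 136, and 17 of 19 reached 1. ALDOA and LDHB, which did not, stood at 0.292 and 0.445. In GENCODE 29, 42.3% of the exon bases of ALDOA and 33.4% of those of LDHB are shared with another gene on the same strand.

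Many transcripts of the translation machinery begin with a C followed by a run of pyrimidines, the terminal oligopyrimidine (TOP) tract, through which their translation is controlled. Because these genes lead the ranking, the RefSeq sequence around the start site is shown for 5 of them and for DNTT, 10 bases before the start and 20 from it, with the run of C and T from the first transcribed base in capitals (GRCh38.p14).
EEF1A1, chr6:73521013-73521042, minus strand: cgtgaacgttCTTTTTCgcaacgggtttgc
EEF2, chr19:3985444-3985473, minus strand: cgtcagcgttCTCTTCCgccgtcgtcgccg
RPS12, chr6:132814559-132814588, plus strand: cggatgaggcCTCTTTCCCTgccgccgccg
RPLP0, chr12:120201092-120201121, minus strand: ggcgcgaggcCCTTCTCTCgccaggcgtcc
RPL41, chr12:56116623-56116652, plus strand: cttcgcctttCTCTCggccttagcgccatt
DNTT, chr10:96304424-96304453, plus strand: ggagggtggcagtctccctcccttctggag
The first 5 genes, of FPKM 715 (RPLP0) to 1382 (EEF1A1), have runs of 5 to 10 letters. DNTT, a lymphoid gene of FPKM 557, has none. Of 63 cytosolic ribosomal genes with a RefSeq promoter, 43 (68.3%) have a C at the start followed by C or T up to 5 letters or more in all, against 5.13% of the 12186 protein-coding promoters matched. Across FPKM classes the share was 26.5% at 100 or more, 5.94% from 10 to 100, and between 2.62% and 4.78% in the 4 lower classes. The highest class takes in many of the ribosomal genes, whose median FPKM was 208.7, and its share without them was not computed.

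The B-lineage identity of the library was seen in progenitor genes. DNTT, the terminal transferase that adds untemplated bases at antibody gene joints and is restricted to early lymphoid cells, had an FPKM of 557 (95% interval 548 to 565), rank 31 of 15471. The recombinase genes followed, RAG1 at 243 (95% interval 240.2 to 246) and RAG2 at 78.4 (95% interval 76.0 to 80.9), a ratio of 3.10 (95% interval 2.997 to 3.205). IL7R, a cytokine receptor chain of lymphoid progenitors, had 139.8, SOX4 62.1, ERG 59.9, MME, which encodes the CD10 antigen of B-ALL, 27.7, and FLT3 24.0. KIT was low at 1.28, and CD34, the antigen of earlier stem and progenitor cells, had no read, with a 3-read floor at an FPKM of 0.0227. Of the 12 members of this progenitor list with a row, 11 reached 1, with a median of 47.3.

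Pre-B receptor genes were high as well, with exceptions. IGLL1, which encodes the constant part of the surrogate light chain, had an FPKM of 304 (95% interval 295 to 314), CD24, a surface antigen of B precursors, 309 (95% interval 304 to 315), and CD79A, a signaling chain of the receptor, 246 (95% interval 239 to 253). VPREB3 had 82.4, while VPREB1, the other part of the surrogate light chain, has no row. CD79B, the partner of CD79A in the receptor, stood at 21.8 (95% interval 20.2 to 23.6), so the level of CD79A was 11.3 times (95% interval 10.4 to 12.3) that of CD79B. The kinase genes SYK and BTK, which act below the receptor, had 48.8 and 33.7, and the adaptor gene BLNK 14.3. The kinase genes LYN and BLK of the same list were lower, at 2.70 and 2.24, below the median of 3.21 over protein-coding genes. CD22, an antigen that therapies of B-ALL target, had 32.8. BANK1, an adaptor of mature B cells, had 2 reads. Of the 19 members with a row, 18 reached 1, with a median of 21.8.

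Among B-lineage transcription factors the highest levels were those of LEF1 (122), XBP1 (121), TCF3 (113), MYB (79.9) and PAX5 (72.3). EBF1, which with PAX5 commits cells to the lineage, had 50.4, IKZF1 33.1 and POU2AF1 27.4. Factors of later B-cell stages were found at both ends. XBP1, which plasma cells use, is among the highest above, and BCL6, the germinal center factor, had 15.4, whereas IRF4 had 0.131 from 11 reads, PRDM1, the master factor of plasma cells, 0.0517 from 5 reads, and IKZF3 no read, with a 3-read floor of 0.0207. The list reached 1 in 16 of 23 members. Genes of mature B and plasma cells reached it in 7 of 15 with a row, among them MZB1 at 49.0, CD40 at 5.65, TNFRSF13C at 3.56 and CCR7 at 1.67. MS4A1, which encodes CD20, JCHAIN, CD80 and TNFRSF17 had no read. The markers thus covered the progenitor stage with a median of 47.3, and the mature stage with a median of 0.0707 over the members with a row.

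Markers of other cell types were low, with some exceptions. In a bulk library, few cells with a transcript and little of it in every cell cannot be told apart. T cell markers reached 1 in 2 of 14 genes with a row, LCK at 5.397 and BCL11B at 1.79, and their summed FPKM was 8.73. The defining genes CD3D, CD3E and CD3G have no row, and CD8A, CD28, LAT and THEMIS had no read. NK markers summed to 2.62, most of it NKG7 at 1.74, and NCAM1 has no row. Of 18 myeloid markers with a row, 4 reached 1: MPO, the granule peroxidase of granulocyte precursors, at 27.7 (95% interval 26.3 to 29.2) from 1400 reads, CEBPE at 7.57, CEBPB at 6.34 and ITGAM at 3.14. The other defining myeloid genes were low, with LYZ at 0.324, CSF1R at 0.624 and CD14 at 0.17, and AZU1, CSF3R, FCN1 and ITGAX had no read. Erythroid and platelet markers summed to 2.89, with HBB at no read and no row for HBA1, HBA2 and PF4. Markers of tissues other than blood summed to 9.18, of which PDGFRB gave 7.82 and COL1A1 0.869, with PECAM1 at 3 reads, ALB at 5 reads and no row for EPCAM.

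The 250 bases before the RefSeq start site are shown for 3 lineage genes of high level and for 2 genes with no read, CD34 and the suppressor TP73, so that the promoter letters behind the counts by FPKM class can be seen at both ends of the ranking. Each CG pair, the site that DNA methylation acts on, is in capitals (GRCh38.p14, 5′ to 3′).
DNTT, chr10:96304184-96304433, plus strand: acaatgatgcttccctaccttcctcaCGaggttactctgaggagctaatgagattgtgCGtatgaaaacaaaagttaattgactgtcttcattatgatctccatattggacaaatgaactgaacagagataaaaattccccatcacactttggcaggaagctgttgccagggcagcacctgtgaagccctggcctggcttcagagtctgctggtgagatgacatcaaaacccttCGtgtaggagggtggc
IGLL1, chr22:23580291-23580540, minus strand: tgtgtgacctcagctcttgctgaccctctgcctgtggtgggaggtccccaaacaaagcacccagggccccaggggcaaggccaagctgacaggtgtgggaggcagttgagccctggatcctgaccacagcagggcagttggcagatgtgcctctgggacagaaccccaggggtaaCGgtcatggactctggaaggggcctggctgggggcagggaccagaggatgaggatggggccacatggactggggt
RAG1, chr11:36510103-36510352, plus strand: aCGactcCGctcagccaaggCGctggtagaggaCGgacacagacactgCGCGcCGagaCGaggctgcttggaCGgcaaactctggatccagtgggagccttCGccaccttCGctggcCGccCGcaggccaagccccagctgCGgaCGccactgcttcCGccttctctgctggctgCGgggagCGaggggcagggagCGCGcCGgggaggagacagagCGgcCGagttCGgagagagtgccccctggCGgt
CD34, chr1:207911126-207911375, minus strand: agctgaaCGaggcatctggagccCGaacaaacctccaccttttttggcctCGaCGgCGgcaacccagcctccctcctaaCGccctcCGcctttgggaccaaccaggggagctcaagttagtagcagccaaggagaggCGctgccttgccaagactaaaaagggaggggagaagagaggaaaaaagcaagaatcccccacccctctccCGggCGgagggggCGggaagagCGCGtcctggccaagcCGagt
TP73, chr1:3652266-3652515, plus strand: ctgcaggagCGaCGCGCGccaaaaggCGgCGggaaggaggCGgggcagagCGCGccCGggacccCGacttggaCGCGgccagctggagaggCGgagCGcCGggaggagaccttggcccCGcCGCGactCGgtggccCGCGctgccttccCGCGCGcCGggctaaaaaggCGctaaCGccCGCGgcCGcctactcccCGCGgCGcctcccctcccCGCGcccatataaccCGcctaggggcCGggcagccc
These windows hold 3 CG pairs for DNTT, 1 for IGLL1, 25 for RAG1, 14 for CD34 and 38 for TP73. The gene with the fewest pairs had an FPKM of 304, and the gene with the most had no read.

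Over all promoters, the number of CG pairs differed by FPKM class. Of the 15458 protein-coding rows outside the mitochondrial genome, 12186 were matched to a RefSeq promoter of 300 bases, 250 before the start and 50 from it. The median number of CG pairs was 10 in genes with no read, 15 in those above 0 and under 0.1, 20 from 0.1 to 1, 26 from 1 to 10, 28 from 10 to 100 and 27 at 100 or more. At least 10 pairs were found in 51.8% of promoters of genes with no read and in 94.1% of those from 10 to 100. The letters TATAAA, the core of the TATA box, on either strand, were most frequent at both ends, in 12.7% of genes with no read and 13.0% of those at 100 or more, against 4.30% from 10 to 100 and 6.92% of all promoters. CCGGAAG, a form of the site that ETS factors bind, on either strand, was found in 4.63% of promoters of genes with no read, 22.5% of those from 10 to 100 and 16.9% of all. GGGCGG, the GC box, was found in 43.9% and 74.0% of the same classes, and in 65.3% of all. A match is a string of letters in the window, matches of different motifs may overlap, and binding was not measured. The genes at 100 or more also had the shortest median length behind FPKM, 3228 bases against 5796 from 1 to 10, and 3407 for genes with no read. FPKM is divided by this length, and for many genes it was the shortest that gave whole reads. These medians are therefore not independent of the levels.

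The fusion partners of B-ALL were examined next, as the disease is classified by them. RUNX1, a factor of blood cell development on chromosome 21 (chr21:34787801-36004667, GRCh38, GENCODE 29), had an FPKM of 20.4 (95% interval 19.8 to 21.0) from 4542 reads. ETV6, an ETS family repressor on chromosome 12 (chr12:11649854-11895402), had 1.20 (95% interval 0.996 to 1.43) from 124 reads. The level of RUNX1 was thus 17.0 times (95% interval 14.2 to 20.5) that of ETV6. A value per gene adds up all reads over its exons, so transcripts of the fusion cannot be told apart from those of the unfused genes. Within 500 kb, the neighbours of ETV6 were low: LRP6 had 1.65, BORCS5 0.075, MANSC1 0.0489, and BCL2L14 has no row. Around RUNX1, RCAN1 had 12.2, CHAF1B 19.4, MORC3 8.24, DOP1B 6.74 and SETD4 4.15, while CBR1 had 0.0855 and CLDN14 no read.

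Of the 31 fusion partner genes with a row, 25 reached 1, with a median of 9.65. TCF3 was highest at 113, followed by HNRNPUL1 at 77.1, PAX5, P2RY8 at 53.3 and MLLT1 at 38.3. ABL1 had 30.1, BCR 10.9, KMT2A 8.21, its partner AFF1 35.1, and JAK2 3.12. CRLF2, the partner of P2RY8, had 0.528 from 15 reads, and NTRK3 no read. DUX4, HLF, MLLT3, TAL1, TLX1 and TLX3 have no row. In the RUNX and ETS families, ELF1 (99.3), ETS2 (66.2), ERG (59.9), ETS1 (45.0) and FLI1 (43.4) stood above RUNX1, as did CBFB, the shared cofactor of RUNX proteins, at 41.4. RUNX2 and RUNX3 had 1 read each, so RUNX1 was the one member of its family above the floor. Of 13 genes associated with leukemia that carries this fusion, 12 have a row and each of these 12 was at 1 or more, led by IGF2BP1 at 56.1, BIRC7 at 24.2, CBFA2T3 at 20.8, TCFL5 at 14.1 and EPOR at 8.42. DSC2 was the lowest at 1.00, at the edge of the threshold, and CD44 has no row.

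Of the 27 genes that act on 6-MP or its nucleotides, 20 (74.1%) had an FPKM of 1 or more, where 63.2% of all protein-coding genes did, and their median was 14.5. HPRT1, the salvage enzyme that makes the first active nucleotide from the drug, had an FPKM of 19.3 (95% interval 17.6 to 21.2). The next enzymes toward thioguanine nucleotides, IMPDH1, IMPDH2 and GMPS, had 19.8, 28.3 and 30.1, with IMPDH2 at 1.43 times (95% interval 1.32 to 1.54) IMPDH1. TPMT, which inactivates thiopurines by methylation, had 7.48 (95% interval 6.71 to 8.32), so that HPRT1 was 2.58 times (95% interval 2.24 to 2.98) as high. NT5C2, a nucleotidase mutated in relapsed leukemia, had 9.95. RRM1 and RRM2, the subunits of ribonucleotide reductase, were at 73.1 and 45.6, and RAC1, a small GTPase to which the thioguanine triphosphate binds, at 53.6. Of the oxidases that degrade the drug, XDH lay below its 3-read floor with 2 reads. AOX1 was low but above its floor, at 0.103 (95% interval 0.0446 to 0.204) from 8 reads. MOCOS, which sulfurates the cofactor of both, had no read.

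Of the transporters, the nucleoside carrier SLC29A1 had 19.05 (95% interval 18.0 to 20.2), 11.1 times (95% interval 8.65 to 14.4) the level of SLC29A2 at 1.72. The purine base carrier SLC43A3 had 13.4, and the efflux pumps ABCC5, ABCC1 and ABCC4 had 11.6, 5.59 and 2.82. SLC28A2 and SLC28A3 had 2 reads each and ABCG2 had 5, while ABCB1 and SLC28A1 have no row. The 9 mismatch repair genes were all at 1 or more. PCNA, the replication clamp, had 377 (95% interval 368 to 385), MSH6, which recognizes mismatches, 48.0, EXO1, the exonuclease of the pathway, 19.7, and PMS2 6.08.

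Of the genes of de novo purine synthesis 10 of 11 (90.9%) reached 1. Of the folate genes 16 of 25 (64%) did, near the 63.2% of all protein-coding genes. PAICS and ATIC, enzymes of purine synthesis, had 84.7 and 54.4, and GART and PPAT 27.5 and 21.3. SHMT2, which makes one-carbon units in mitochondria, had 55.8 (95% interval 54.0 to 57.6), TYMS 19.2, FPGS, which retains folates and methotrexate in the cell, 36.4, its opponent GGH 5.82, and the folate carrier SLC19A1 11.3. ALDH1L1 and AMT had no read. For AMT, 63.1% of the exon bases are shared with another gene on the same strand.

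Histidine genes covered a wide range. Of the transport genes, SLC7A5 and its partner SLC3A2 had 70.7 and 28.3, SLC15A4 3.21 and SLC38A3 0.229 from 13 reads. The histidyl-tRNA synthetases HARS1 and HARS2 had 7.30 and 9.41. Of the genes of histidine dipeptides, CNDP2, which cleaves them, had 16.6, CARNMT1, which methylates carnosine, 7.14, and CARNS1, which makes carnosine, 0.0986 from 8 reads. The catabolic enzymes that pass histidine to tetrahydrofolate were below 1: HAL, the first, had 0.122 (95% interval 0.0559 to 0.232) from 9 reads, UROC1, the second, no read, AMDHD1, the third, 0.369 (95% interval 0.202 to 0.619) from 14 reads, and FTCD, the last, 0.0816 (95% interval 0.0222 to 0.209) from 4 reads. HDC, which makes histamine, had no read, and HNMT has no row. HINT1, a nucleotide hydrolase with a histidine triad, had 24.1, and the mitochondrial desuccinylase gene SIRT5 3.77. With 17 genes in the list and 16 with a row, 9 (56.25%) reached 1, where 63.2% of all protein-coding genes did. These 9 include HINT1 and SIRT5, which are neither transport nor catabolic genes of histidine.

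**Figure D2:**
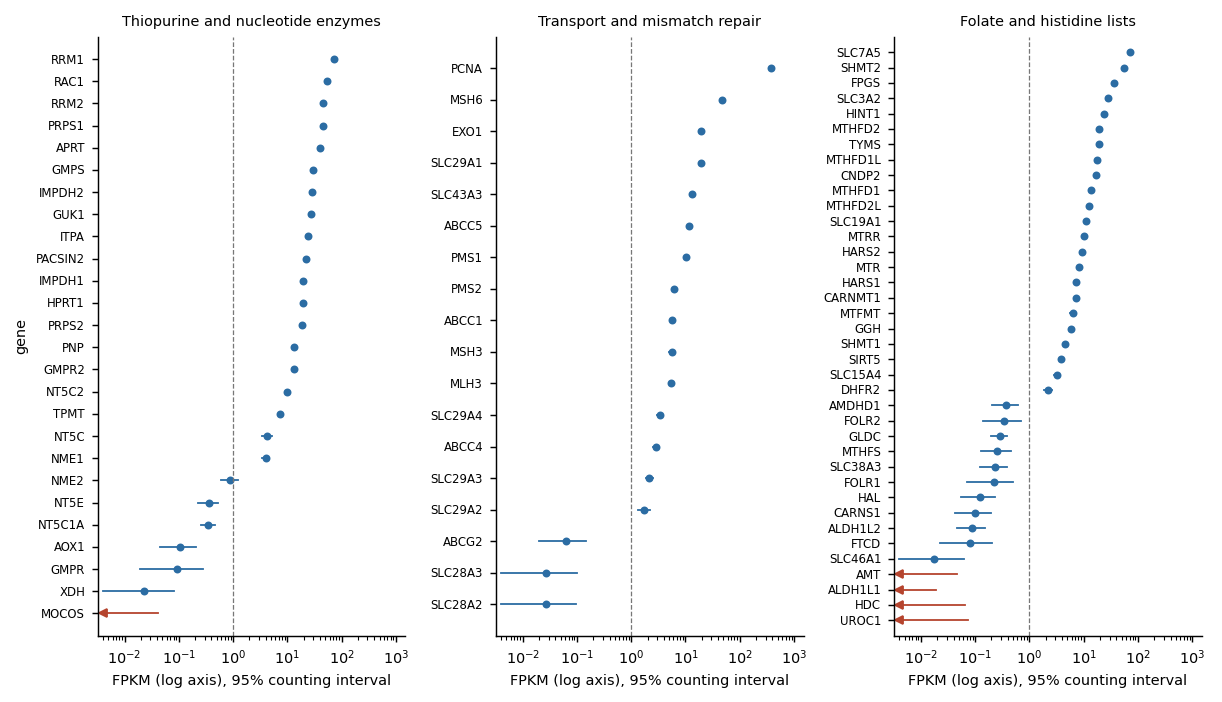
FPKM with exact 95% counting intervals, on a log axis, for listed genes of thiopurine and nucleotide metabolism, drug transport and mismatch repair, and folate and histidine metabolism. Arrows mark genes with no read, and the dashed line an FPKM of 1. MOCOS and XDH lie at or near 0 reads, and PCNA is highest at 377.

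Targets of the other drugs used in ALL ranged widely. TOP2B, a topoisomerase that anthracyclines act on, had the highest level at 453 (95% interval 448 to 457), 4.48 times (95% interval 4.38 to 4.58) that of TOP2A at 101. TUBB, which encodes a tubulin bound by vincristine, had 117, PSMB5, the proteasome subunit inhibited by bortezomib, 71.7, and MCL1 44.4. BCL2, the target of venetoclax, had 22.5, NR3C1, the glucocorticoid receptor, 6.00, and DCK, which activates cytarabine, 32.9. ASNS, whose absence makes cells depend on external asparagine, had 0.457 from 32 reads, and 44.6% of its exon bases are shared with another gene on the same strand. Genes of drug oxidation were low: 8 of 33 cytochrome P450 and reductase genes with a row reached 1, led by the reductase gene POR at 9.26, CYP2R1 at 5.03, CYP51A1 at 2.43, CYP2U1 at 2.22 and CYP20A1 at 2.21, and 11 had no read. CYP51A1 shares 79.4% of its exon bases with another gene on the same strand, so its level is uncertain. CYP3A4, the main drug-oxidizing P450 of the liver, had 0.124 from 6 reads. Genes of conjugation reached 1 in 13 of 26 with a row, with the glutathione transferase genes GSTP1 at 146 (95% interval 141 to 150.4), GSTO1 at 46.3 and GSTK1 at 18.98, and NQO2 at 17.9. GSTM1, GSTT1 and the listed UGT1A genes have no row.

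Most tumor suppressor genes were expressed. Of 55 with a row, 50 had an FPKM of 1 or more, 31 had 10 or more and 3 were below 0.1. Of all protein-coding genes, 63.2% stood at 1 or more and 21.3% below 0.1. The classes from 10 to 100 and of 100 or more held 25.7% and 1.78% of all protein-coding genes. TNFAIP3, an inhibitor of NF-kappaB, was highest at 89.8 (95% interval 87.6 to 92.0), with CDKN2C, a CDK4 and CDK6 inhibitor, at 65.4 (95% interval 63.0 to 67.9) and CDKN1A, another CDK inhibitor, at 48.6 (95% interval 46.6 to 50.8). RB1 had 28.8, SMARCA4 37.0, CREBBP 20.8 and NF1 4.72. A gene-level value does not tell a mutant transcript from an intact one, and no sequence was analysed here. The 3 silent genes were PRDM1, with 5 reads, and TP73 and PTCH1, with no read and 3-read floors at an FPKM of 0.0310 and 0.0122. WT1 and SMARCB1, a core subunit of the SWI/SNF chromatin remodeler, lay between at 0.404 (95% interval 0.297 to 0.537) and 0.423 (95% interval 0.344 to 0.514). ETV6, which is also on this list, stood just above the threshold of 1, with an interval that includes it. CDKN2A and CDKN2B, the CDK inhibitors of chromosome 9p21 that are often deleted in ALL, have no row.

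The genes around CDKN2A were therefore read along the chromosome. From MLLT3 to TUSC1 (chr9:20341665-25678440, GRCh38), none of the 28 consecutive protein-coding genes of GENCODE 29 has a value above 0 for this library. For 27 of them there is no row, which is not a measured 0, and FOCAD is listed with no read. Besides CDKN2A (chr9:21967753-21995301) and CDKN2B, the stretch of 5337 kb holds MTAP, the methionine salvage enzyme gene next to CDKN2A, KLHL9, HACD4, ELAVL2, DMRTA1 and the type I interferon genes. Among runs of consecutive protein-coding genes with no row or no read, ordered by number of genes, it took place 8. It has 28 genes, as many as the run at place 7, so the order between them is arbitrary. The runs before it were mostly clusters of related genes, such as olfactory receptor genes on chromosome 11 (66 genes), the epidermal differentiation genes on chromosome 1 (58 genes) and the keratins on chromosome 12 (28 genes), which are silent in most tissues. MTAP and FOCAD are, as background, transcribed in most cell types. Genes that every cell uses, such as EEF1G, also have no row, so a gene left out of the table, a deleted gene and a silent gene cannot be told apart here.

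**Figure D3:**
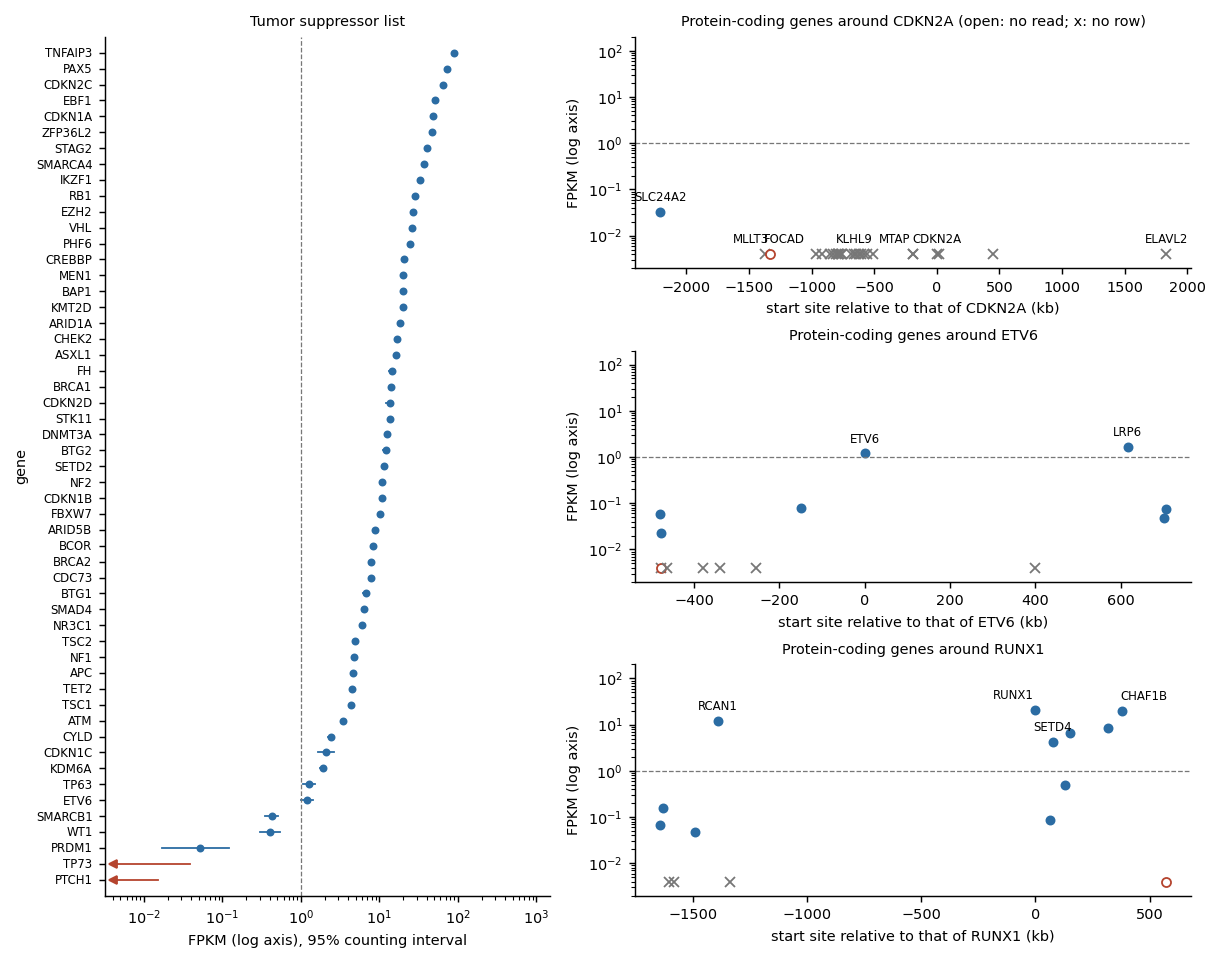
Left, FPKM of listed tumor suppressor genes with a row, with exact 95% counting intervals, on a log axis. Arrows mark TP73 and PTCH1, with no read. Right, FPKM of protein-coding genes against the distance of their start sites from those of CDKN2A, ETV6 and RUNX1. Crosses mark genes with no row and open circles genes with no read. From MLLT3 to ELAVL2 the genes of the CDKN2A panel have no row, apart from FOCAD with no read, while RUNX1 stands at 20.4 and CHAF1B at 19.4.

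Suppressors that are often silenced by promoter methylation in cancer spread over the whole range of levels. Of 40 with a row, 17 (42.5%) reached 1, 13 were below 0.1 and 6 had no read, namely PCDH17, RASSF6, SFRP2, SFRP5, TP73 and WIF1. The WNT antagonists SFRP2, SFRP5 and WIF1 were thus without reads, SFRP4 had 1 read and DKK3 had 2 reads. DKK1, another WNT antagonist, had 0.157 from 5 reads, above the threshold of 0.1. GSTP1 led the list at 146, and BRCA1 (14.2), PTPN6 (13.3), RASSF5 (11.7) and RASSF2 (7.76) came next. SOCS1 and SOCS3, the feedback inhibitors of cytokine signaling, had 0.703 and 0.588, and DAPK1 0.996. Of the 10 promoters matched for members below 0.1, 90% held at least 10 CG pairs, and of the 14 for members at 1 or more, 78.6%, against 81.4% of all promoters. The median number of pairs was 19 and 29 in these groups. Methylation itself was not measured.

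The levels were also set beside the share of exon bases that a gene has in common with others. Of the protein-coding rows found in GENCODE 29, 12922 share no exon base with another gene on the same strand and had a median FPKM of 3.66, with 21.3% below 0.1. The 2185 genes that share some but at most 50% had a median of 2.65 and 16.8% below 0.1. In this class 64.6% reached 1, against 64.4% of the genes that share none. The 328 genes that share more than 50% of their exon bases had a median of 0.0978 and 50.3% below 0.1, and the 62 that share more than 90% had a median of 0.0137. The part of the counting rule in these values was not tested. ALDOA, LDHB, EIF4A1 and ASNS, with 0.292, 0.445, 1.72 and 0.457, share 42.3%, 33.4%, 48.6% and 44.6% of their exon bases. They belong to the class of at most 50%, in which values below 0.1 were not more frequent than without sharing. Their levels are uncertain, and whether sharing has a part in them was not tested. ETV6 and SMARCB1 share none on the same strand. RPS25 at 1.61 and the elongation factor gene EEF1D at 1.12 also share none. Sharing none thus does not make a low level certain, and whether counting used strand is not known.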

How the data were processed

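RNA-seq libraries (TruSeq Stranded mRNA) were made from Reh-6-MPR cells, 1 per treatment. The authors deposited FPKM per gene, with symbol, biotype and position. The submitters' processing notes name Trimmomatic, HISAT2, Cufflinks, HTSeq and GRCh38 (hg38), without order or role; whether counting used strand is not given in the sources used here. Reads were recovered from the steps of the FPKM values, which needs the values of all 4 libraries. They came out whole, within 0.0002, for 29832 of 29833 genes and summed to 99.995% of the library total of 14316493. The annotated length gave whole reads for 15759 genes. For 13545 others the shortest length that gave whole reads was taken. Whole reads are there the rule of the search and not a check, and counts can be too small by a whole factor. A whole factor on 528 lengths was taken where it brought the length within 10% of the annotated one, a rule set after the totals had been seen. Intervals are exact Clopper-Pearson intervals at the 95% level, and the floor is 3 reads.

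Protein-coding rows of the vehicle library were ranked by FPKM, and described without a test. Annotation was GENCODE 29, and promoters and names came from RefSeq (GRCh38.p14). Of the identifiers, 28905 were found in GENCODE 29. The 29 gene lists, the members and the rule for named genes were chosen with earlier results of these data known. The rule names the 20 highest genes, the 5 highest, the defining and the unread members of each list, the fusion, thiopurine, repair, folate, histidine and suppressor genes, and neighbours within 500 kb of CDKN2A, ETV6 and RUNX1. Other genes named were chosen after their values were seen, among them MT-ND6, MT-ATP8, RPS25, RPS10, EEF1G, EEF1D, ALDOA, LDHB, EIF4A1, MME, FLT3, KIT, CD79B, BTK, LYN, BLK, BLNK, CD22, BANK1, POU2AF1, BCL6, IRF4, BCL2, NR3C1, DCK, ASNS, CYP3A4, PPAT, CBFB, RUNX2, RUNX3, DSC2, DKK1, DKK3, SFRP4, SOCS1, SOCS3, DAPK1 and the genes of the 9p21 stretch outside that window. Some listed genes are not reported here by name, though the counts over lists include them. Alternatives were other thresholds, TPM, read counts, annotated lengths and a filter on low reads. Scripts were tested on simulated data. Versions were matplotlib 3.10.9, scipy 1.17.1, pandas 2.3.3, numpy 2.4.6 and Python 3.11.15.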

Additional observations from a re-analysis of the deposited data

How the results depend on the processing

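Of 251 values recomputed under an alternative, 202 stayed within 1.5 times the count or within the counting interval, and the number of expressed protein-coding genes was 6529 at an FPKM of 5 or more, the lowest, and 11636 at 10 reads or more, the highest. The 100 genes with the most reads held 18.3% of the reads, and the 100 highest by FPKM held 21.6% of summed FPKM without the mitochondrial genes and 29.7% with all biotypes, and 11 of the 20 highest genes were also among the 20 highest by reads. Counts at the threshold moved most in lists of few expressed genes. At an FPKM of 0.5 or more they were 4 for T cell, 2 for NK and 2 for non-blood markers. At 5 or more they were 3 for mature B, 1 for T cell, 0 for NK and 0 for erythroid markers, 4 for thiopurine transport, 2 for P450, 8 for conjugation and 10 for methylation-prone genes. At a TPM of 1 or more they were 4 for T cell, 3 for NK, 9 for myeloid, 4 for erythroid and 3 for non-blood markers. At 10 reads or more the same lists gave 4, 3, 7, 4 and 2. Silent tumor suppressors were 5 at an FPKM under 0.5, and silent methylation-prone genes 6 when no read was required. With members of at least 3 reads, the median FPKM was 13.1 for B transcription factors, 27.3 for pre-B receptor, 2.62 for mature B, 0.591 for T cell, 0.520 for NK, 0.319 for non-blood, 14.0 for RUNX and ETS, 18.5 for thiopurine enzymes, 3.38 for transport, 7.34 for folate, 5.45 for histidine, 10.2 for other drugs, 0.787 for P450, 2.34 for conjugation, 12.1 for tumor suppressors and 2.08 for methylation-prone genes. This filter removes the lowest members by construction. With annotated lengths it was 59.1 for translation factors, 24.2 for pre-B receptor, 17.6 for thiopurine enzymes, 6.37 for folate, 4.86 for histidine and 12.1 for tumor suppressors. No paired analysis was possible because a single library is described, without a test, so there was also no replicate to leave out. The depth limits statements on genes near 3 reads.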
